A study of Homo sapiens with 10 samples.

Results

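The genes of the MYC, MAX and MXD network were followed through the differentiation of H1 human embryonic stem cells into hepatocyte-like cells. The members were MYC, MYCN, MYCL, MAX, MXD1, MXD3, MXD4, MXI1, MNT and MGA, taken by symbol from the expression table, and 9 of these 10 symbols were among its 12125 genes. The symbol MYCL was absent, but its gene ID, ENSG00000116990, was listed under the older symbol MYCL1, which is described beside the 9 members and not counted with them.

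H1 is an established embryonic stem cell line, and the RNA of whole cultures was sequenced in 10 libraries, 1 before treatment (day 0), 1 on each of the next 3 days, 1 every other day from day 5 to day 13, and 1 on day 21. The day 0 culture was undifferentiated. The cultures of days 1, 2 and 3 had received Activin A at 100 ng/ml, those of days 5 and 7 FGF4 at 30 ng/ml with BMP2 at 20 ng/ml, those of days 9 and 11 HGF and KGF at 20 ng/ml each, and those of days 13 and 21 are labelled with OSM at 20 ng/ml. The step lengths of the protocol would place day 13 at the last day with HGF and KGF, so the exposure of that library to OSM is uncertain. No genotype differs between the days, and the samples hold no untreated culture of a later day, so time in culture and the factors cannot be told apart.

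MYC proteins are transcription factors that bind DNA as pairs with MAX, mainly at the E-box CACGTG, and promote cell growth and division. The MXD proteins, MXI1, MNT and MGA also pair with MAX at such sites and bring in repressors, so that the MYC and MXD groups compete for one partner. In embryonic stem cells MYC and MYCN are known for their part in self-renewal, and the MXD genes are known to be expressed as cells leave the cell cycle and differentiate.

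The E-box was searched in the RefSeq promoters of GRCh38.p14, each covering the 250 bases before and the 50 bases after a gene start. CACGTG is its own reverse complement, so 1 search covered both strands. It was found in 7.26% of all 35116 promoters, and in at least 1 promoter of 8.77% of all 27305 gene symbols. Promoters were listed for 9 of the 10 genes named above (MYCL included, MYC missing), and 2 of the 9 genes held the motif. The stretches around it, shown because they are the sites of this kind within the network itself, lie on the minus strand at chr4:2262322-2262359 for MXD4 and chr17:2401228-2401273 for MNT, with the E-box in capitals:
MXD4: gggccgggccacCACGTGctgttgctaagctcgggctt
MNT: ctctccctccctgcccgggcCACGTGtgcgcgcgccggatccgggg
The motif began 238 bases before the start of MXD4 and 193 bases before that of MNT.

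Each value below is the GC-normalized whole number that the authors deposited for a gene and a day, with library totals between 2330948 and 2362740. These are not read counts, so the depth behind each library is unknown from them. With 1 library per day no test between days was possible, and no p-value is given. A change is a difference of log2(value + 1), and a gene was called higher or lower when the change reached 2-fold and the larger value was at least 50. As a measure of spread, the SD of the difference between days 11 and 9 was taken over the 500 genes nearest in level. It was 1.42 on the log2 scale at a value of 5, 0.51 at 50 and 0.29 at 200, so that low values carried the largest uncertainty. This spread also holds any change between days 9 and 11, and it stands in for replicates, of which these samples hold none. Days 9 and 11 share their factors and had differed least in earlier results of these data. Their spread is therefore a low measure of the differences between libraries. With the spread between days 1 and 2 in its place, 5 of the 8 gaps between neighbouring levels named below stayed over 2 SD, and those of MYC between days 0 and 3, MYCN between days 7 and 0 and MXI1 between days 7 and 21 did not.

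The stage markers moved with the labels. SOX17, an endoderm transcription factor, went from 2 at day 0 to 790 at day 3, and HNF4A, a hepatocyte transcription factor, from 28 at day 3 to 1044 at day 7. POU5F1, a pluripotency factor, went from 4861 at day 0 to 5 at day 21. Genes of other cell types were present late. The summed value of the 10 stromal markers was 929 at day 0 and 42115 at day 21, and that of the 8 red blood cell markers was 5 at day 0 and 5741 at day 13. Their part in the late values of the network genes was not tested. In these bulk samples, fewer cells of a type and less RNA per cell cannot be told apart.

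MYC was highest on the first day of Activin A and low from day 5 on. Its values were 210 in the day 0 library, 466, 221 and 121 on days 1, 2 and 3, 6 and 31 on days 5 and 7, 20 and 24 on days 9 and 11, and 38 and 9 on days 13 and 21. All 4 values of days 0 to 3 lay above all 6 later values, with 121 as the lowest of the early and 38 as the highest of the later days. MYC, on chromosome 8 (ENSG00000136997), encodes the MYC protein that gives the network its name.

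From day 0 to day 1 MYC was higher by 1.15 (SD 0.27 at its level), a ratio of 2.22. From day 3 to day 5 it fell by 4.12 (SD 1.34), the largest step in its course between neighbouring days. In the order of its levels, day 1 stood above day 2, day 0 above day 3, and day 3 above day 13 by more than 2 SD, while days 2 and 0 did not differ beyond their spread. The 6 levels from day 5 to day 21 formed a low group in which no neighbours differed by more than 2 SD.

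MYCN took a different course, with a first high value in the stem cells and a second, higher one at day 7. This gene (ENSG00000134323, listed at 2:16080686-16087129, plus strand) encodes N-MYC, a MYC protein known from neural progenitors and embryonic tissues. Its values were 201 in the day 0 library, 61, 64 and 39 on days 1, 2 and 3, 146 and 330 on days 5 and 7, 140 and 96 on days 9 and 11, and 60 and 4 on days 13 and 21. The first day of Activin A thus had a high MYC and a low MYCN value, and days 5 and 7, under FGF4 and BMP2, the reverse.

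MYCN fell by 1.70 from day 0 to day 1 (SD 0.39) and by 2.34 from day 0 to day 3. It was higher by 3.05 at day 7 than at day 3, a ratio of 8.46. It fell by 2.44 from day 7 to day 13 and by 3.61 from day 13 to day 21 (SD 1.51 at a value of 4). In the order of its levels only day 7 stood more than 2 SD above the next, which was day 0 (0.71 with an SD of 0.29), and with the wider spread of days 1 and 2 (SD 0.52) it did not. The antisense gene MYCNOS overlaps MYCN on the other strand, and the library kit does not mark strand, so reads from the pair cannot be told apart. MYCL1, MAX, MXI1, MNT and MGA each have such an overlap with an antisense or opposite-strand gene too.

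MYCL1 (1:40361098-40367685, minus strand), the gene of L-MYC, was also highest at day 7. It had 92 in the day 0 library, 55, 86 and 96 on days 1, 2 and 3, 46 and 193 on days 5 and 7, 47 and 36 on days 9 and 11, and 15 and 3 on days 13 and 21. Day 7 stood more than 2 SD above day 3, the next in order, and the 5 lowest values were those of days 5, 9, 11, 13 and 21.

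**Figure D1:**
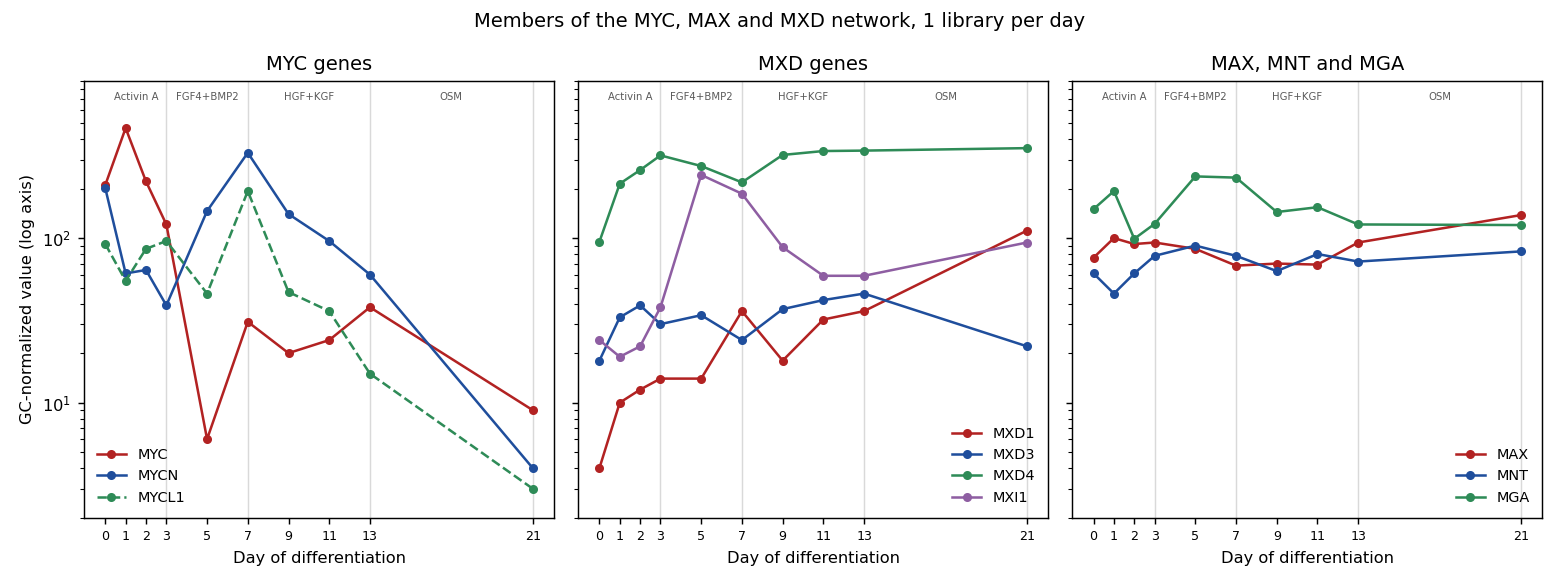
Deposited GC-normalized values (log axis) of the network genes against the day of differentiation, 1 point per library, with vertical grey lines at the ends of the protocol's steps and MYCL1 dashed. MYC peaks at 466 at day 1 and MYCN at 330 at day 7, MXD1 reaches 111 at day 21, and MAX and MNT vary over about 2-fold.

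Levels of different genes were compared only per kb of mean transcript length. On this scale MYC was above MYCN in 5 of 10 libraries, those of days 0, 1, 2, 3 and 21. MYC made up 84.9% of the summed level per kb of MYC, MYCN and MYCL1 at day 1 and 4.34% at day 5, where MYCN made up 69.8%. At day 7 the shares were 7.76% for MYC, 54.7% for MYCN and 37.6% for MYCL1. At day 0 the order depends on the length used, since MYC had 50.7% against 32.1% for MYCN by mean transcript length and 42.3% against 46.7% by merged exons.

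Summed per kb, these 3 genes had 292 in the stem cells, 386 on day 1, 97.4 on day 5, 281 on day 7, 62.9 on day 13 and 9.84 on day 21. The level at day 7 was thus close to that of day 0, with MYCN and MYCL1 in place of MYC. At day 21 all 3 genes had values below 10, so the shares at that day rest on values with a wide spread.

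MAX, the shared partner, had a highest value 2.0 times its lowest. Its values (ENSG00000125952, 14:65472892-65569105, minus strand) were 76 in the day 0 library, 100, 92 and 94 on days 1, 2 and 3, 86 and 68 on days 5 and 7, 70 and 69 on days 9 and 11, and 94 and 138 on days 13 and 21. No neighbours in the order of its levels differed by more than 2 SD, and MAX was called in none of the comparisons on the values as deposited. The difference from day 0 to day 21 was 0.85 (SD 0.36 at its level), and it was 1.04, and then called higher, with the libraries scaled by the median of ratios. The value at day 7, when MYCN was highest, was the lowest of the 10.

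The 4 MXD genes each had their own course. MXD4 (ENSG00000123933, 4:2249159-2264021, minus strand) encodes a MAX partner that represses transcription. It had 95 in the day 0 library, 214, 259 and 318 on days 1, 2 and 3, 274 and 218 on days 5 and 7, 320 and 338 on days 9 and 11, and 340 and 352 on days 13 and 21. Day 0 was the lowest value and stood more than 2 SD below the next, day 1, and the other 9 values, all of at least 214, did not differ from their neighbours in order beyond the spread.

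MXD4 was higher by 1.16 at day 1 and by 1.73 at day 3 than at day 0. The rise of MXD4 and of MYC on the first day therefore went in the same direction, and MYCN was the only member called lower there. MXD4 was the largest of the MXD genes per kb in 8 of 10 libraries, with 60.8% of their summed level at day 0 and 58.7% at day 21.

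MXI1 (ENSG00000119950, 10:111967363-112047123, plus strand) encodes the repressor also named MXD2 and was highest under FGF4 and BMP2. It had 24 in the day 0 library, 19, 22 and 38 on days 1, 2 and 3, 242 and 186 on days 5 and 7, 88 and 59 on days 9 and 11, and 59 and 94 on days 13 and 21. It was higher by 2.64 at day 5 than at day 3, over the same interval in which MYC fell to its lowest value.

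In the order of its levels day 7 stood more than 2 SD above day 21, and days 5 and 7 did not differ beyond the spread. MXI1 fell by 1.64 from day 7 to day 13. Per kb, it made up 47.8% of the MXD genes at day 5 and 45.4% at day 7, the 2 libraries in which it exceeded MXD4, against 7.87% at day 2.

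MXD1 (ENSG00000059728, 2:70124820-70165391, plus strand) encodes MAD1, a repressor known from maturing blood and epithelial cells, and was highest at day 21. Its values were 4 in the day 0 library, 10, 12 and 14 on days 1, 2 and 3, 14 and 36 on days 5 and 7, 18 and 32 on days 9 and 11, and 36 and 111 on days 13 and 21. Day 21 stood more than 2 SD above the next library in order, and all other values were below 50. From day 13 to day 21 MXD1 was higher by 1.60 (SD 0.42), a ratio of 3.08.

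Macrophage markers were highest at day 21 too, and over the earlier days their courses differed from each other. Of 13 such markers 3 were measured, and their summed value was 13 to 74 in the libraries of days 0 to 13 and 525 at day 21. The sum was lowest at day 7, at 13, when MXD1 had 36. Between days 13 and 21 CD68, a lysosomal protein of macrophages, went from 50 to 259, LYZ, the gene of lysozyme, from 24 to 201, and PTPRC, the common leukocyte antigen CD45, from 0 to 65. PTPRC also had 39 in the undifferentiated day 0 culture, and LYZ had 44 at day 5. CD68 had 0 on days 0 to 3, 1 and 6 on days 5 and 7, and 16 and 14 on days 9 and 11. The part of macrophages in the MXD1 value was not tested. MXD1 is also a gene with a same-strand overlap, with SNRNP27.

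MXD3 (ENSG00000213347, 5:176728462-176738871, minus strand), a member of the MXD group known from dividing cells, stayed low. It had 18 in the day 0 library, 33, 39 and 30 on days 1, 2 and 3, 34 and 24 on days 5 and 7, 37 and 42 on days 9 and 11, and 46 and 22 on days 13 and 21. None of its values reached 50, so it could not be called, and no neighbours in order differed by more than 2 SD. Its exons overlap PRELID1 on the other strand and RAB24 on the same strand.

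MNT and MGA, the larger MAX partners that can also oppose MYC, were not called in any comparison at 2-fold. MNT (ENSG00000070444, 17:2287354-2304412, minus strand) had 61 in the day 0 library, 46, 61 and 78 on days 1, 2 and 3, 90 and 78 on days 5 and 7, 63 and 80 on days 9 and 11, and 72 and 83 on days 13 and 21. It was lowest at day 1, when MYC was highest, although that value did not lie more than 2 SD from the next.

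MGA (ENSG00000174197, 15:41913422-41988781, plus strand) is a very large protein that also belongs to a Polycomb complex. Its values were 150 in the day 0 library, 193, 99 and 122 on days 1, 2 and 3, 237 and 233 on days 5 and 7, 144 and 154 on days 9 and 11, and 121 and 120 on days 13 and 21. Days 5 and 7 were its highest, as they were for MXI1. MGA was higher by 0.95 at day 5 than at day 3 and fell by 0.94 from day 7 to day 13 (SD 0.30 for each), changes past the spread and short of 2-fold, while no neighbours in the order of its levels differed by more than 2 SD.

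Counted by comparison, 3 of the 6 members with a value of at least 50 in either library were called between days 0 and 1, MYC and MXD4 higher and MYCN lower, where 4.01% of all genes tested were called higher and 4.71% lower (8.71% in either direction). Between days 0 and 3 MXD4 was called higher and MYCN lower among 6 members, against 11.1% of all genes called higher and 9.07% lower (20.2% in all). MYC, at 121 against 210, was not called there.

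Between days 3 and 5 the calls were MXI1 and MYCN higher and MYC lower among 7 members, against 7.76% of all genes called higher and 7.30% lower (15.1% in all), a comparison added after the values were seen. Between days 5 and 7, also added, MYCN was called higher among 6 members, against 7.70% of all genes called higher and 6.35% lower (14.0% in all). Between days 3 and 7 MYCN and MXI1 were called higher and MYC lower among 7 members, against 13.2% of all genes called higher and 12.8% lower (26.0% in all).

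Between days 7 and 13 MYCN and MXI1 were called lower among 6 members, against 9.65% of all genes called higher and 8.21% lower (17.9% in all). Between days 13 and 21 MXD1 was called higher and MYCN lower among 7 members, against 8.57% of all genes called higher and 9.08% lower (17.7% in all). Between days 9 and 11, under the same factors, no member was called among 6, against 1.04% of all genes called higher and 0.568% lower (1.61% in all).

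From day 0 to day 21 MXD1, MXI1 and MXD4 were called higher, by 4.49, 1.93 and 1.88, while MYCN fell by 5.34 and MYC fell by 4.40. These were 5 of 8 members, where 23.9% of all genes tested were called higher and 26.5% lower (50.4% in either direction), so the count of members called was near that of the table as a whole. Scaling by the median of ratios moved the median of all genes between these days by 0.18, kept these 5 calls and added MAX as a sixth, called higher.

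The values of days 9 to 21 did not overlap with those of days 0 to 3 for 4 of 8 members, higher late for MXD1, MXD4 and MXI1 and lower late for MYC. Among all genes 21.5% were separated and higher late and 26.4% separated and lower late (47.9% in all). MXD4 was separated by a narrow margin, with 318 as its highest early and 320 as its lowest late value. MYCN overlapped, since its values of 61, 64 and 39 at days 1 to 3 lay among its late values.

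Summed per kb, the 4 MXD genes had 78.2 in the stem cells, 149 and 212 on days 1 and 3, 323 and 261 on days 5 and 7, and 258 and 300 on days 13 and 21. The MYC genes reached 3.73 times this sum in the stem cells, 2.60 and 0.735 times on days 1 and 3, 0.301 and 1.08 times on days 5 and 7, and 0.244 and 0.0328 times on days 13 and 21. By merged exons in place of mean transcript length the ratio was 7.26 in the stem cells, 1.21 on day 3, 0.671 on day 5, 2.15 on day 7 and 0.0557 on day 21, so its size, and whether day 3 lies above 1, depend on the length used. With either length it fell through the Activin A days, was higher at day 7 than at day 5, and was lowest at day 21. It is a ratio of RNA levels per length and says nothing of protein.

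A list of 28 genes known to be activated by MYC, which serve ribosome assembly, nucleotide and polyamine synthesis, translation and the cell cycle, was highest early. The highest value fell on day 0 for 10 of these genes, on day 1 for 13 and on day 2 for 3, and 22 had their lowest at day 21. From day 0 to day 1, when MYC rose, 1 was called higher and 1 lower among 28, against 4.01% and 4.71% of all genes. The median change was 0.02 against 0.01 for all genes tested. From day 0 to day 3, 1 was called higher and 7 lower, against 11.1% and 9.07% of all genes. The median was -0.77 against -0.06 for all genes.

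Over the rest of the course the list went on to lower values. From day 3 to day 7, 1 of 27 was called higher and 4 lower, against 13.2% and 12.8% of all genes. The median was -0.38 against -0.04. From day 5 to day 7, when MYCN was higher by 1.17, 1 was called higher and 0 lower, against 7.70% and 6.35% of all genes. The median was 0.03 against -0.02 for all genes. From day 13 to day 21, 12 of 23 were called lower and 1 higher, against 9.08% and 8.57% of all genes. The median was -1.0 against -0.05.

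Between days 0 and 21 the list had 24 genes called lower and 1 higher, with a median of -2.49 against -0.11 for all genes, of which 26.5% were called lower. NPM1, a nucleolar chaperone, went from 18734 at day 0 to 1107 at day 21, and its first value is the ceiling of the table, which 10 genes share in each library. BOP1, a ribosome assembly factor, went from 264 to 16 and NME1, a nucleoside diphosphate kinase, from 291 to 26. CDC25A, a phosphatase that starts DNA replication, went from 203 to 16.

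ODC1, the first enzyme of polyamine synthesis, was called higher. It had 194 at day 0, 456, 428 and 392 on days 1, 2 and 3, 824 and 2641 on days 5 and 7, 6499 on days 9, 11 and 13, and 2434 on day 21. It was the only one of the 28 genes whose late values all lay above its early ones, while 17 lay below. Among all genes 21.5% were separated and higher late and 26.4% separated and lower late. Its highest value is a level that several libraries share, so the order of days 9 to 13 is not resolved.

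TERT, the catalytic subunit of telomerase, was among the genes nearest in course to MYC, although it was lower at day 1 than at day 0, where MYC was higher. It had 86 in the stem cells, 57, 24 and 13 on days 1, 2 and 3, and at most 4 in the 6 later libraries. Its course had a root mean square difference from that of MYC of 0.71 on the centred log2 scale over 10 libraries, the second smallest of all genes. KAL1, the gene of the adhesion protein anosmin, was nearest at 0.70, with 650 at day 1 and 23 at day 5.

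Of the 28 activated genes 24 had a listed promoter (NOP58, BOP1, SHMT2 and CCND2 missing), and the E-box was found in 13 of them, or 54.2%, against 8.77% of all gene symbols. The list was drawn from known MYC targets, so this share describes the list. Of 4 promoters of MYC-repressed genes 0 held it. The sites of TERT and ODC1 are shown because their courses differ most within the list, and those of EIF4E as an example of a promoter that holds the motif more than once:
TERT, chr5:1295206-1295251, minus strand: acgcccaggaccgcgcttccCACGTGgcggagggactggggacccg
ODC1, chr2:10448016-10448061, minus strand: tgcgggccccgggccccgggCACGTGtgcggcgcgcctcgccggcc
EIF4E, chr4:98929333-98929378, minus strand: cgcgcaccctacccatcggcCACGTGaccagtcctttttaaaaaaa
EIF4E, chr4:98929180-98929225, minus strand: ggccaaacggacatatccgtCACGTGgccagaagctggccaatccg
From day 0 to day 21 the 13 genes with the motif had 10 called lower and a median of -2.33, and the 11 genes without it had 11 called lower and a median of -2.69. The median fall was smaller in the genes with the motif, a difference that was not tested.

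Of 6 genes known to be repressed by MYC 4 could be tested from day 0 to day 21, and 3 of them were called higher, with a median of 1.84 against -0.11 for all genes, of which 23.9% were called higher. From day 3 to day 7 the median was -0.51, of the same sign as that of the activated list. The calls went the other way, with 2 of 5 called higher and 0 lower. Of all genes 13.2% were called higher and 12.8% lower between these days. NDRG1, a stress-responsive gene named for its regulation by N-MYC, had 14 in the day 0 library, 24, 14 and 22 on days 1, 2 and 3, 66 and 209 on days 5 and 7, 255 and 364 on days 9 and 11, and 518 and 2800 on days 13 and 21. From day 3 to day 7 NDRG1 rose together with MYCN, which went from 39 to 330. From day 7 to day 21 NDRG1 rose while MYCN fell to 4. CDKN1A, the cell cycle inhibitor p21, had 69 in the day 0 library, 5, 36 and 90 on days 1, 2 and 3, 300 and 58 on days 5 and 7, 68 and 113 on days 9 and 11, and 207 and 303 on days 13 and 21. It was lowest when MYC was highest and high at day 5, when MYC was lowest, but at days 7 and 9 it was below its day 0 value while MYC was low too. CDKN1B, the inhibitor p27, had 88 at both day 0 and day 21. GADD45A, a growth arrest gene, was highest at day 5, at 163.

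Proliferation genes did not follow MYCN at day 7. Of 13 such genes 8 were called lower from day 3 to day 7 and 6 higher from day 7 to day 13, with medians of -1.41 and 0.66, and all 13 were called lower from day 13 to day 21, with a median of -2.12. The medians of all genes in these comparisons were -0.04, -0.05 and -0.05. The shares of all genes called in the same directions were 12.8% lower, 9.65% higher and 9.08% lower. TOP2A, the topoisomerase of dividing cells, had 1214 on day 1, 676 and 149 on days 5 and 7, 668 on day 11 and 59 on day 21. The median of the list was thus lowest at day 21 and next lowest at day 7, the day of the highest MYCN value.

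These nearest genes depend on the measure of likeness, since by Pearson correlation 1 of the 8 named for the 4 members, GALC, was again among the nearest. The genes nearest in course to the other members with a log2 range of at least 2 were SCUBE1 (0.71) and NR6A1 (0.73) for MYCN, LPGAT1 (0.36) and ABCA5 (0.40) for MXD1, and GALC (0.36) and ANKMY2 (0.39) for MXI1, each as a root mean square log2 difference over 10 libraries. NR6A1, an orphan nuclear receptor of early embryos, had 512 at day 0, 756 at day 7 and 46 at day 21. GALC, a lysosomal galactosylceramidase, went from 58 at day 3 to 395 at day 5, beside the step of MXI1 from 38 to 242. LPGAT1, a lipid acyltransferase, went from 162 at day 13 to 462 at day 21, beside the step of MXD1 from 36 to 111.

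The MXD proteins act through the SIN3 repressor complex. Of 13 measured SIN3 complex genes 3 were called lower and 1 higher from day 0 to day 21, with a median of -0.10 against -0.11 for all genes, of which 23.9% were called higher and 26.5% lower. HDAC2, a histone deacetylase, went from 1436 to 256. SIN3A, a scaffold of the complex, had 254 at day 0 and 146 at day 21, and SIN3B had 209 and 228. Of 12 MYC cofactors 6 were called lower and 0 higher between these days, with a median of -0.95 against -0.11. In either direction the share called was near the 50.4% of all genes. All of the calls were lower, though, where 26.5% of all genes were called lower and 23.9% higher. RUVBL1, an ATPase of chromatin remodelling complexes, went from 390 to 62.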

How the data were processed

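RNA of H1 cultures was sequenced at 10 days, 1 library per day, with nothing pooled. Per the study's methods, reads were aligned with Bowtie2 2.2.0 and RSEM 1.2.17 to the Ensembl release 76 transcriptome, and the values were GC-normalized with EDASeq. The methods give that transcriptome as mm10, a mouse build, although the cells are human. The submitters' processing notes name hg19 and mm10. The deposited values are scores, the authors' normalized values as whole numbers, with nearly equal distributions in all libraries. They are not counts, the methods give the depth as an average only and the values show none per library, and true differences in total RNA are not kept. The table does not name the build of its intervals, which are printed as given. They are not to be set against the promoter positions, which are those of GRCh38.p14. The MNT site, for example, lies outside the interval listed for MNT.

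Differences of log2(value + 1) were computed with Python 3.11.15, numpy 2.4.6 and pandas 2.3.3, and plots were drawn with matplotlib 3.10.9. Calls needed a 2-fold change and a larger value of at least 50. Lengths came from GENCODE release 29 and promoters from RefSeq (GRCh38.p14). The code was tested on simulated data. With 1 library per group, no test was made. Alternatives were other pseudocounts, scalings, filters, folds and lengths, and leaving out libraries.

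The members and gene lists were chosen with earlier results of these data known. Named genes were all members, at most 6 genes per list with the largest log2 range among genes reaching 50, and the 2 nearest in course to members with a log2 range of at least 2. EIF4E, SIN3A, SIN3B and the other genes outside this rule were chosen after their values were seen.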

Additional observations from a re-analysis of the deposited data

How the results depend on the processing

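No paired analysis was possible because each day has 1 library and no test was made. Across other pseudocounts (0.1 and 5) and scalings, 288 of 288 member changes moved by less than the spread and 0 called changes turned direction. The sign turned in 2, both of MGA between days 13 and 21 (-0.01 as deposited, 0.01 and 0.07 under the scalings), and in 1 of 32 counts a call was gained (MAX, between days 0 and 21). The deposited values already have nearly equal distributions, and the scaling factors lay between 0.915 and 1.057. The scalings could thus move the changes only a little. Requiring a 4-fold change left 0 members called between days 0 and 1, 1 between days 0 and 3, 0 between days 5 and 7, 1 between days 7 and 13, 1 between days 13 and 21 and 3 between days 0 and 21. Requiring a value of at least 200 left 1 between days 3 and 5, 1 between days 3 and 7, 1 between days 7 and 13, 0 between days 13 and 21 and 3 between days 0 and 21. Without a filter on low values 4 were called between days 13 and 21 (MXD1 higher, MYC, MYCN and MXD3 lower) and 3 between days 5 and 7 (MYC, MYCN and MXD1 higher). Leaving out each library in turn, 4 to 5 members did not overlap between days 0 to 3 and days 9 to 21, the fifth being MNT without day 3. Leaving out a library can only narrow a range, so this check could add members but could not remove any. No share of all genes is given under these settings, so these counts do not set the members apart from other genes. With Pearson correlation 1 of 8 similar genes was again among the nearest. The median spread was 0.36 between days 9 and 11 and 0.59 between days 1 and 2, a pair chosen after the values were seen. Values under about 20, such as MYC at day 5 and MYCN at day 21, are the least certain.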

Other observations

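The related MLX branch, in which MLX takes the place of MAX and pairs with sugar-sensing partners, had 1 call between days 0 and 21. MLXIPL, the gene of the carbohydrate response factor ChREBP, had 23 in the day 0 library, 5, 9 and 11 on days 1, 2 and 3, 15 and 39 on days 5 and 7, 24 and 24 on days 9 and 11, and 36 and 60 on days 13 and 21. It was the 1 of the 3 genes of this branch called between days 0 and 21, and it was called higher. Of all genes 50.4% were called in either direction between these days. Its day 7 value was above those of days 5 and 9, as for MYCN and MYCL1. MLX was highest at day 3, at 150, and lowest at day 9, at 68. MLXIP, the gene of the second partner MondoA, ranged from 112 at day 3 to 238 at day 21.

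Genes that act on the stability of MYC proteins had 1 call higher and 5 lower among 9 from day 0 to day 21, with a median of -1.51 against -0.11 for all genes, of which 23.9% were called higher and 26.5% lower (50.4% in all). HUWE1, a ubiquitin ligase, had 872 at day 3, 2430 at day 5 and 1214 at day 7, so its highest library was the one with the lowest MYC value. AURKA, a mitotic kinase known to protect N-MYC, had 58 at day 7, when MYCN was highest, and 261 at day 2. The mitotic kinase PLK1 went from 378 at day 2 to 15 at day 21. All of these are RNA values of single libraries. Protein was not measured in these samples, and links of these genes to MYC or MYCN were not tested.

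Of the partners of MGA in its Polycomb complex, 6 of 10 tested were called lower and 1 higher from day 0 to day 21, with a median of -1.11 against -0.11 for all genes and the same shares of all genes called. With the libraries scaled by the median of ratios 3 were called lower and 1 higher. Over these days MGA itself had 150 and 120. EHMT2, a histone methyltransferase of this complex, had 582 at day 0, 172 at day 3 and 142 at day 21. TFDP1, a partner of E2F factors, had 407 at day 2 and 98 at day 21.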
